A study of Mus musculus with 14 samples.

Results

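Hair cell (HC) fate transcription factors were followed in sorted cochlear supporting cells (SCs) of neonatal mice. The group was set as a list of 9 named genes, Atoh1, Hes6, Nhlh1, Neurod6, Insm1, Gfi1, Pou4f3, Barhl1 and Lhx3, and all 9 were found among the 35976 genes of the deposited counts tables. The 14 libraries came from cochlear explants of Lfng-EGFP mice, dissected at P0-P1 (called P0 here, as in the labels) or at P6 and cultured for 24 h with 2 µM compound E in DMSO or with an equal volume of DMSO. Compound E is a γ-secretase inhibitor that blocks Notch receptor cleavage. There were 4 compound E and 4 DMSO libraries at P0, and 3 and 3 at P6. Every animal carried the Lfng-EGFP reporter, a BAC transgene, and Lfng, whose regulatory sequence drives it, is itself a Notch target. Several cochleae were pooled in each sorted sample. Libraries of the same replicate number at an age are called a pair here. Each pair belonged to a single batch in the labels, P0 pairs 3 and 4 shared a batch, and no batch held both ages, so that age and batch cannot be told apart.

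Notch lateral inhibition sets the pattern of HCs and SCs in the cochlea. A cell that expresses Atoh1, the basic helix-loop-helix (bHLH) activator required for HC formation, displays Notch ligands, and Notch activity in its neighbours maintains Hes and Hey repressors that keep Atoh1 low. Downstream of Atoh1, factors such as Pou4f3 and Gfi1 are required for HC differentiation and survival, so the 9 genes range from the first fate decision to later HC maintenance.

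Promoter sequences are shown for Atoh1 and Hes6, which had the highest levels per length of the 9 at P0, and for Barhl1, for comparison. They are the 250 bases before an annotated start (RefSeq, GRCm38.p6), read 5′ to 3′ on the gene's own strand. RefSeq promoters were found for 7 of the 9 genes, 11 promoters in all. Capitals mark the E-box CAGCTG, a kind of site bound by bHLH activators, and CACGNG, a kind of site bound by Hes and Hey repressors, both searched on either strand (CACGNG reads CNCGTG on the other). Their matches did not overlap in the promoters shown.
Atoh1, chr6:64728875-64729124, plus strand: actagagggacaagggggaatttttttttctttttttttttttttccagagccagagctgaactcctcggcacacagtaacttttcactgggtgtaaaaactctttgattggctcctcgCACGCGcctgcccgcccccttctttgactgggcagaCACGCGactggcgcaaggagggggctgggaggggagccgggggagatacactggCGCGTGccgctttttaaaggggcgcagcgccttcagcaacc
Hes6, first start, chr1:91414039-91414288, minus strand: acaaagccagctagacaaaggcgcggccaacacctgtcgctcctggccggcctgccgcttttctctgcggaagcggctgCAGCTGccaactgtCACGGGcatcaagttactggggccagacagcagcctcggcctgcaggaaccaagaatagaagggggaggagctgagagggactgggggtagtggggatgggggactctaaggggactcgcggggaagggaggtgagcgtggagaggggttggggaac
Hes6, second start, chr1:91413223-91413472, minus strand: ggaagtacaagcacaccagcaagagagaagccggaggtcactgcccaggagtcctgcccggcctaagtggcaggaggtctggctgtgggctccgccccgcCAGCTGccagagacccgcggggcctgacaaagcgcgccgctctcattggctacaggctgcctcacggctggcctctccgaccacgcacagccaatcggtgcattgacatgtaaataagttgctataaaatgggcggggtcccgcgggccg
Barhl1, first start, chr2:28916669-28916918, minus strand: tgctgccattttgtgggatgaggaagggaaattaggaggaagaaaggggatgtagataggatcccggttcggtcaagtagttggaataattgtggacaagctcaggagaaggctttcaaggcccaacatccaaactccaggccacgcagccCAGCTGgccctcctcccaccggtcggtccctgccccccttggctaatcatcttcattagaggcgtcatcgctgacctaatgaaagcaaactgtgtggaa
CAGCTG was present in 4 of the 11 promoters, namely both of Hes6 and both of Barhl1, against 13.0% of 32851 promoters of the same length. CACGNG was present in 2 of the 11, those of Atoh1 (3 matches) and the first start of Hes6 (1 match), against 23.5% of all. Such matches are a description of the letters, not of bound sites.

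The libraries held 19415066 to 44430063 counts (median 29565676), and levels are given as counts scaled to a library total of 1000000 (RPM). Summed over 12 SC markers, levels were 5162 to 11005 RPM, and summed over 20 HC markers they were 800.2 to 2673 RPM, so HC marker transcripts were present in every sorted library. No marker of either list was at 0 throughout a group. In bulk libraries such as these, fewer cells of a type and less RNA per cell cannot be told apart. Among other cell types, 6 mesenchyme markers summed to 886 to 3960 RPM, 6 Schwann cell and glia markers to 182.9 to 288 RPM, 8 neuron markers to 32.2 to 139 RPM, and macrophage, endothelium and melanocyte markers to at most 89.7, 12.1 and 18.1 RPM. The mesenchyme sum was mostly Lum and Dcn, with means of 754 and 189 RPM in P0 DMSO. Col3a1 averaged 80.9 RPM there, and Col1a1, Pou3f4 and Twist1 averaged 3.69, 3.16 and 1.43 RPM. EdgeR and DESeq2 called none of the markers of these other cell types at either age, with 2 of them at an unadjusted edgeR p under 0.05 at P0 and 0 at P6 (4 and 4 with the replicate block). Of these last 4 at P6, 3 were macrophage markers. In P6 pairs 1, 2 and 3 the 6 macrophage markers summed to 7.68, 2.74 and 31.7 RPM with DMSO. With compound E they summed to 16.3, 10.9 and 89.7 RPM. Endothelium and melanocyte sums were lower with compound E in each P6 pair, and mesenchyme, glia and neuron sums went both ways. In each P0 pair the mesenchyme sum was higher with compound E (log2 ratios of 0.16 to 0.55) and the melanocyte sum was lower. Glia, neuron, macrophage and endothelium sums went both ways at P0.

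At P0, Insm1, Hes6 and Atoh1 were 3.23- to 8.11-fold higher with compound E in every pair, Pou4f3 was 1.82- to 3.02-fold higher, and Lhx3, Barhl1 and Nhlh1 were higher in 3 of 4 pairs. A gene was called at an edgeR quasi-likelihood adjusted p of at most 0.01 over all genes tested and at least a 2-fold change. In the fit without pairs, 0 of the 9 genes were called higher, against 0.238% of the 15937 genes tested, although 3 (Hes6, Insm1 and Atoh1) had an unadjusted p under 0.05, as did 13.4% of genes in either direction, and DESeq2 called those same 3 and 0.762% of the genes it tested higher. With the replicate block, a fit in which each pair has its own baseline, 4 of the 9 were called higher (Insm1, Hes6, Atoh1 and Pou4f3), against 0.684% of genes. None was called lower in either fit, against 0.985% and 1.51% of genes. The median log2 fold change of the 9 was 1.03, and that over all genes tested was 0.0069.

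Among the bHLH factors, Atoh1 (chr6:64729125-64731245, a single exon) had 94.5, 21.0, 31.5 and 66.0 RPM in the DMSO libraries of P0 replicates 1 to 4 and 305 RPM, 93.6 RPM, 159 RPM and 219 RPM with compound E. The lowest compound E library, replicate 2, lay just below the highest DMSO library, replicate 1, so that the groups overlapped, while each pair differed by at least 3.23-fold. Group means were 53.2 ± 33.6 RPM (DMSO) and 194 ± 90.0 RPM (compound E, SD, n = 4 each). The log2 fold change was 1.84 (SE 0.452, edgeR adjusted p = 0.0563) without pairs and 1.94 (SE 0.126, edgeR adjusted p = 0.000122) with the replicate block.

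Hes6 (chr1:91411483-91414038), a member of the Hes family that opposes Hes1 rather than acting as a Notch effector, had the highest level of the 9. It had 107, 33.6, 48.4 and 56.8 RPM with DMSO and 373 RPM, 137 RPM, 240 RPM and 295 RPM with compound E at P0. It was the only gene of the 9 with every compound E library above every DMSO library at P0, a pattern found in 5.13% of the genes tested. The log2 fold change was 2.06 (SE 0.349), and its edgeR adjusted p of 0.010001 lay just above the threshold. It was 2.09 with the replicate block (SE 0.118, edgeR adjusted p = 7.82e-05).

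Nhlh1 (chr1:172052292-172057573), a bHLH factor of developing neurons, was low and variable. Its levels were 3.56, 0.701, 2.76 and 2.96 RPM with DMSO and 9.03 RPM, 0.876 RPM, 6.82 RPM and 2.21 RPM with compound E. Pairs 1 and 3 were about 2.4-fold higher or more (2.50 and 2.42), pair 2 was 1.22-fold higher and pair 4 was lower, at 0.755 of DMSO. Its estimate on the log2 scale was 0.89 (SE 0.657, edgeR adjusted p = 0.669), and 0.65 with the replicate block (SE 0.341, edgeR adjusted p = 0.361).

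Neurod6 (chr6:55677822-55681263), a bHLH factor of the neuronal NeuroD family, was the least abundant of the 9 at P0. DMSO libraries had 45, 8, 0 and 51 counts (1.70, 0.200, 0 and 1.68 RPM), and compound E libraries had 123, 23, 127 and 121 counts (2.77, 1.18, 3.70 and 3.82 RPM). In the pair with the DMSO library at 0, a floor of 3 counts in that library gave a level at least 38.9-fold higher with compound E, whereas pairs 1, 2 and 4 were 1.59-, 4.28- and 2.21-fold higher on the RPM + 0.1 scale. Its log2 fold change of 1.70 (SE 0.904, edgeR adjusted p = 0.489) rested on these few counts, as did the 2.12 with the replicate block (SE 0.817, edgeR adjusted p = 0.201).

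The zinc finger factors differed from each other in size of response. Insm1 (chr2:146221921-146225020, a single exon), a repressor that acts in outer HC identity and neuroendocrine differentiation, had 14.2, 1.63, 5.24 and 7.33 RPM with DMSO and 70.6 RPM, 13.9 RPM, 42.8 RPM and 56.7 RPM with compound E. Only replicate 2 with compound E fell within the DMSO range, just below DMSO replicate 1. The folds within pairs were 4.95, 8.11, 8.03 and 7.64. On the log2 scale the change was 2.68 (SE 0.596, edgeR adjusted p = 0.0361) and 2.79 with the replicate block (SE 0.158, edgeR adjusted p = 7.82e-05).

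Gfi1 (chr5:107716657-107726036), a repressor required for HC survival, had 23.2, 8.24, 15.2 and 23.1 RPM with DMSO and 47.3 RPM, 17.1 RPM, 25.1 RPM and 23.3 RPM with compound E. Pairs 1 and 2 were 2.03- and 2.06-fold higher, pair 3 was 1.65-fold higher, and pair 4 was level at 1.01. A log2 fold change of 0.66 (SE 0.343, edgeR adjusted p = 0.480) did not pass, nor did the 0.67 with the replicate block (SE 0.182, edgeR adjusted p = 0.0745). Gfi1 shares 101 exonic bases with A430072P03Rik on the opposite strand, and strand use in counting is not stated, so reads there could belong to either.

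The homeodomain factors were Pou4f3, Barhl1 and Lhx3. Pou4f3 (chr18:42394539-42397249), a POU factor required for HC differentiation and survival, had 16.2, 2.68, 4.06 and 7.66 RPM with DMSO and 29.6 RPM, 6.70 RPM, 12.5 RPM and 14.4 RPM with compound E. Its groups overlapped, since DMSO replicate 1 exceeded 3 of the 4 compound E libraries, but each pair was higher. For Pou4f3 the log2 fold change was 1.03 (SE 0.539, edgeR adjusted p = 0.482) and 1.13 with the replicate block (SE 0.170, edgeR adjusted p = 0.00606). This blocked call was lost without any single pair, when the edgeR adjusted p was 0.0173 to 0.0368, whereas the calls of Insm1, Hes6 and Atoh1 were made without each of the 4 pairs in turn.

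Barhl1 (chr2:28907679-28916668), needed for the long-term maintenance of HCs, had 17.5, 3.25, 6.54 and 17.3 RPM with DMSO and 32.1 RPM, 8.14 RPM, 13.1 RPM and 12.5 RPM with compound E. Pairs 1 to 3 were 1.82- to 2.46-fold higher, and pair 4 was at 0.723 of DMSO. On the log2 scale the difference was 0.53 (SE 0.526, edgeR adjusted p = 0.785), and 0.63 with the replicate block (SE 0.275, edgeR adjusted p = 0.264).

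Lhx3 (chr2:26200212-26208289), a LIM homeodomain factor of HCs and motor neurons, had 34.4, 5.78, 12.4 and 30.5 RPM with DMSO and 50.2 RPM, 11.5 RPM, 13.9 RPM and 16.7 RPM with compound E. Its pair folds ran from 0.549 in pair 4 to 1.98 in pair 2, and the log2 fold change of 0.11 was smaller than its error (SE 0.563, edgeR adjusted p = 0.972). Without compound E replicate 1, the highest library, the log2 fold change was -0.55. Lhx3 shares 188 exonic bases with the antisense gene Gm27196.

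**Figure D1:**
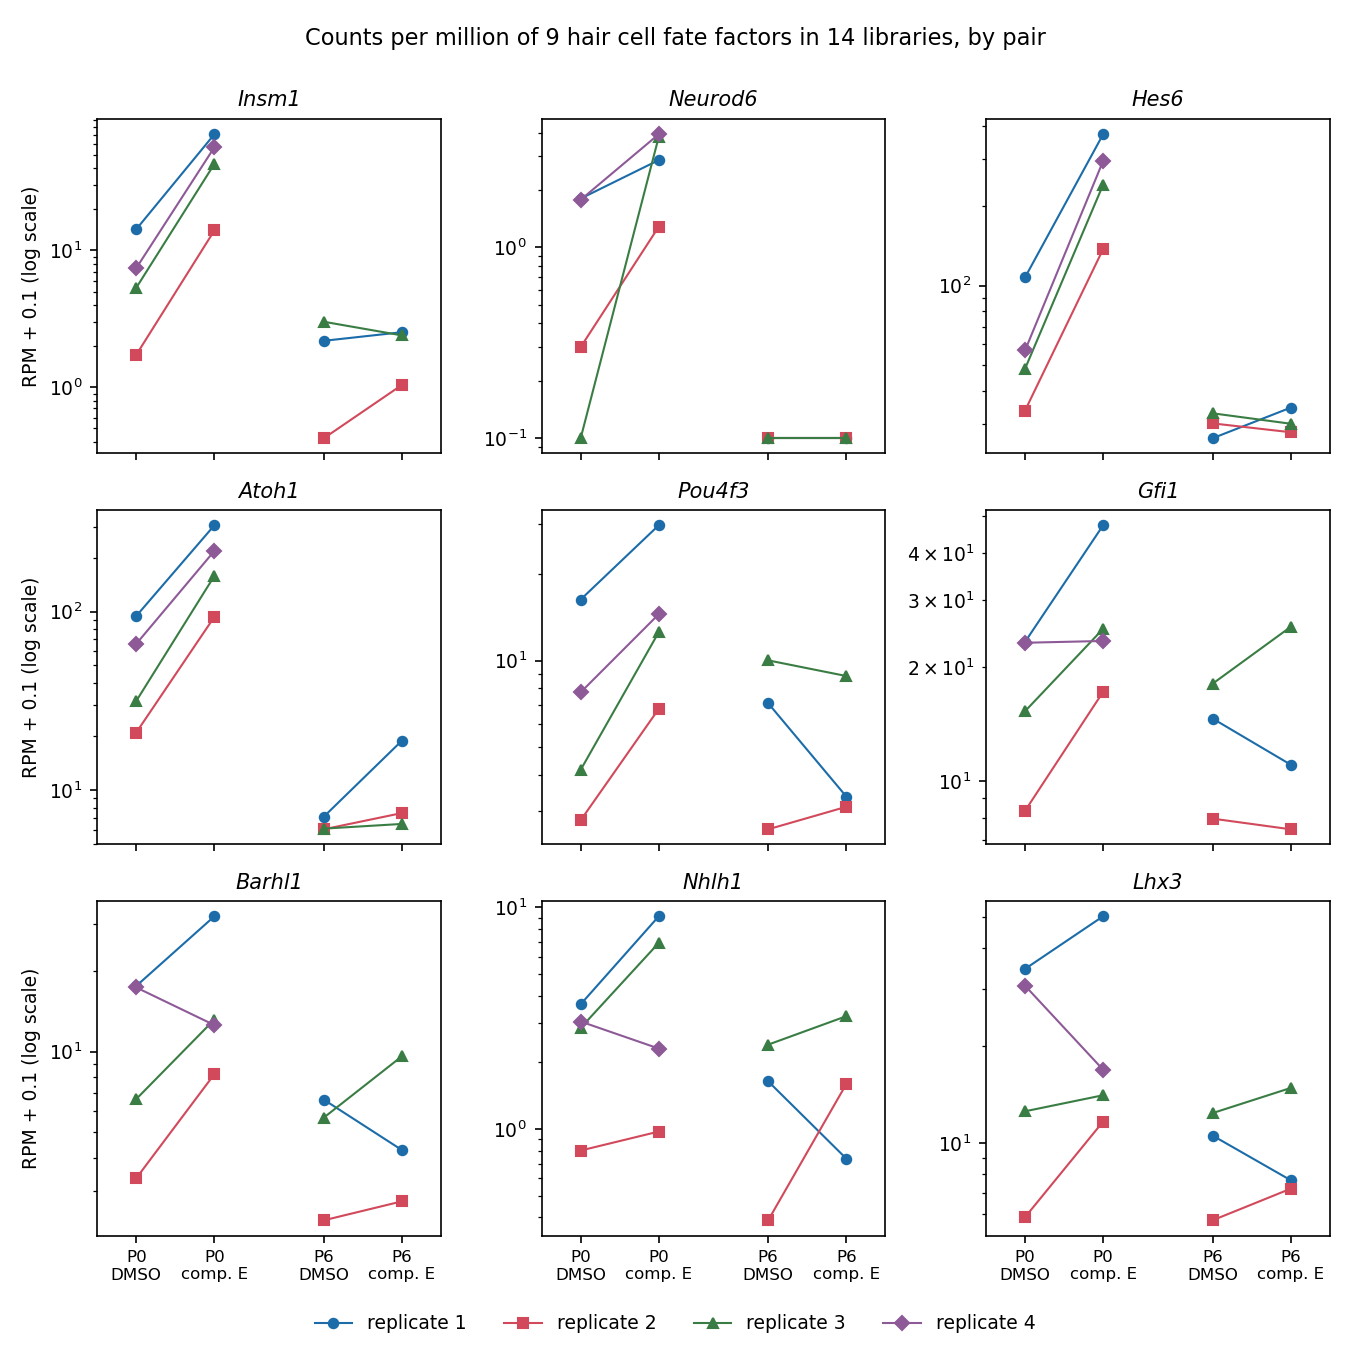
RPM + 0.1 on a log axis (a range of its own in each panel) for each of the 9 genes in the 14 libraries, with lines joining DMSO and compound E libraries of the same replicate number. At P0 the lines of Insm1, Hes6, Atoh1 and Pou4f3 run upward nearly in parallel in all 4 pairs, those of Barhl1, Nhlh1 and Lhx3 turn down in pair 4, and Neurod6 is at 0 in all 6 P6 libraries.

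The spread between P0 libraries was shared by the 9 genes. Replicate 1 had the highest level of 8 of the 9 genes with compound E (Neurod6 excepted) and of all 9 with DMSO, and replicate 2 had the lowest of all 9 with compound E and of 8 with DMSO (Neurod6 excepted). The summed RPM of the 9 was 313, 77.1, 126 and 213 with DMSO and 919 RPM, 290 RPM, 517 RPM and 644 RPM with compound E. Within a treatment the highest of these sums was over 3 times the lowest, and within a pair compound E was higher in all 4.

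Ordered by the mean log2 ratio of RPM + 0.1 within P0 pairs, the 9 genes ran from Insm1 (2.82 ± 0.34, SD over 4 pairs), Neurod6 (2.29 ± 2.06), Hes6 (2.13 ± 0.27) and Atoh1 (1.98 ± 0.32) through Pou4f3 (1.16 ± 0.35) to Gfi1 (0.70 ± 0.48), Barhl1 (0.67 ± 0.78), Nhlh1 (0.62 ± 0.83) and Lhx3 (0.21 ± 0.79). A step was compared within pairs. Insm1 exceeded Hes6 by 0.69 ± 0.22 and Atoh1 by 0.84 ± 0.26 in 4 of 4 pairs. Atoh1 exceeded Pou4f3 by 0.81 ± 0.056 in 4 of 4, the most even step of the order. Hes6 and Atoh1 did not differ beyond their spread (0.15 ± 0.34, higher in 2 of 4 pairs), nor did Pou4f3 and Gfi1 (0.46 ± 0.51), Gfi1 and Barhl1 (0.031 ± 0.36), Barhl1 and Nhlh1 (0.053 ± 0.66) or Nhlh1 and Lhx3 (0.41 ± 0.79). The place of Neurod6 was not fixed: it ranked from 1 to 8 among the 9 in single pairs, and it fell to place 4 with a pseudocount of 1 RPM. With 4 pairs, no test of a single difference over sign patterns could pass 0.05, so these steps are descriptions. In all, 6 of the 9 genes were higher in every P0 pair, as were 17.4% of the genes tested.

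HC markers moved less than the leading factors. None of the 20 HC markers was called at P0 by edgeR in either fit or by DESeq2. At an unadjusted edgeR p under 0.05 were 1 without the block and 3 with it. The median log2 fold change of the 20 without the block was 0.065, with 11 above 0 and 9 below. Myo7a, the unconventional myosin commonly used to label HCs, averaged 99.8 ± 32.3 RPM in compound E libraries and 86.4 ± 35.3 RPM in DMSO libraries (SD, n = 4), for a log2 fold change of 0.16 (SE 0.278, edgeR adjusted p = 0.896). Its direction turned without compound E replicate 1 (-0.023).

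Pair by pair, the HC markers were not level. Their summed RPM was 1.70-, 1.87- and 1.36-fold higher with compound E in P0 pairs 1, 2 and 3 and at 0.977 of DMSO in pair 4 (1.44, 1.80, 1.16 and 0.821 without Myo6, the most abundant of them at P0 with compound E). The number of the 20 markers that were higher was 17, 20, 11 and 4 in the same order. Pair 4 is thus the pair in which Barhl1, Nhlh1 and Lhx3 were lower and Gfi1 was level, while Insm1, Hes6, Atoh1 and Pou4f3 were 7.64-, 5.20-, 3.32- and 1.87-fold higher in it. Less the log2 ratio of the HC marker sum in the same pair, Gfi1 stood at 0.18 ± 0.11, Barhl1 at 0.15 ± 0.43, Nhlh1 at 0.099 ± 0.70 and Lhx3 at -0.31 ± 0.38, against 2.30 ± 0.61 for Insm1, 1.61 ± 0.65 for Hes6, 1.46 ± 0.45 for Atoh1 and 0.64 ± 0.49 for Pou4f3. Gfi1, like these 4 genes, was above the HC marker sum in 4 of 4 pairs, Barhl1 and Neurod6 were above it in 3, Nhlh1 in 2 and Lhx3 in 1. The part that the amount of HC transcripts had in the responses of the 9 genes was not tested.

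**Figure D2:**
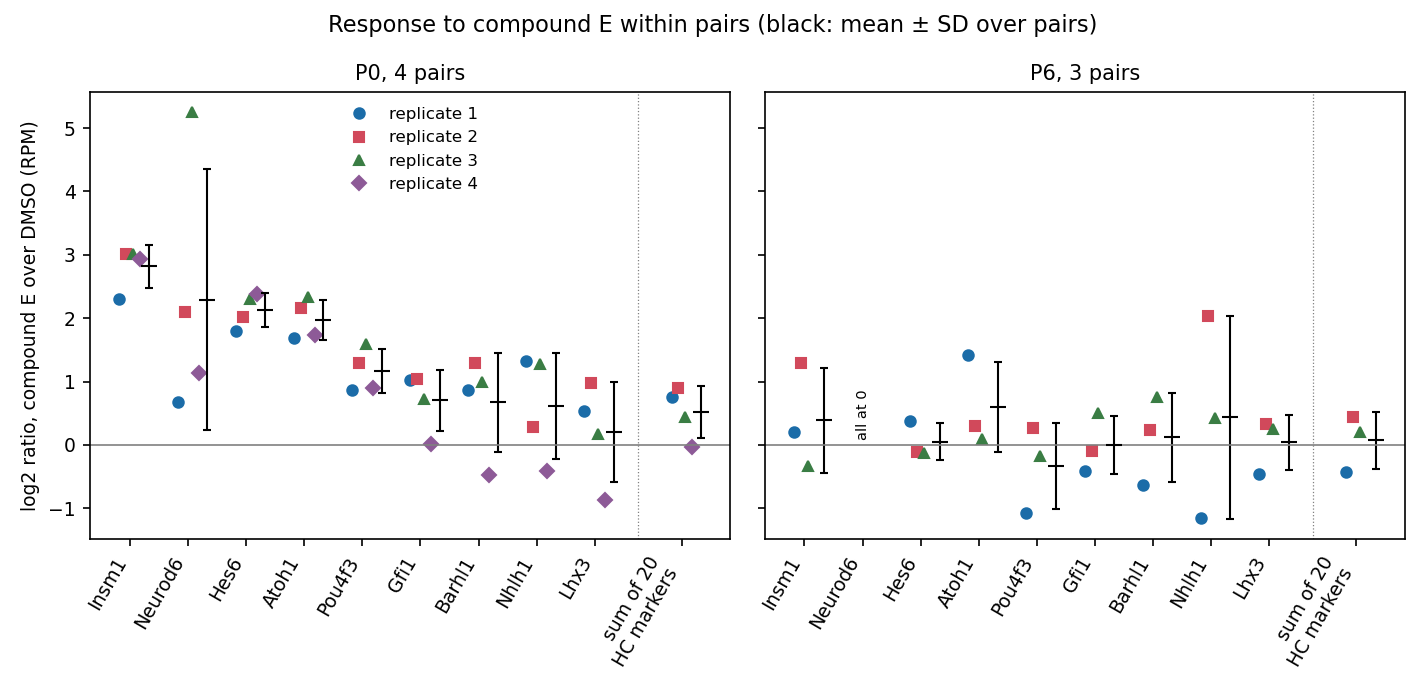
Log2 ratio of compound E over DMSO within each pair at P0 (left) and P6 (right) for the 9 genes, on RPM + 0.1, and for the summed RPM of 20 HC markers; black marks are the mean ± SD over pairs. At P0 Insm1, Hes6, Atoh1, Pou4f3 and Gfi1 (Gfi1 by 0.049 at the least) lie above the HC marker sum in all 4 pairs, while pair 4 (purple) is below 0 for Barhl1, Nhlh1, Lhx3 and the marker sum, and at P6 the ratios of Atoh1 are above 0 in all 3 pairs and those of the other 7 genes tested lie on both sides of 0. Atoh1 lies above the HC marker sum in 1 of the 3 P6 pairs.

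Of 12 bHLH partners and inhibitors at P0, 4 were called lower (Heyl, Hes1, Hey1 and Hey2) and 6 with the replicate block (also Hes5 and Id3), and none was called higher in either fit, with 9 below 0 and 3 above. DESeq2 called Hes1, Hes5, Hey1, Hey2 and Heyl lower. Hes5, a direct Notch effector, had 690 ± 210 RPM with DMSO and 21.1 ± 29.7 RPM with compound E, or -5.05 on the log2 scale (SE 0.973, edgeR adjusted p = 0.0187) and -6.01 with the block (edgeR adjusted p = 0.00247). Hes1, which represses Atoh1, went from 116 ± 28.3 RPM in DMSO to 18.0 ± 5.48 RPM, which is -2.70 on the log2 scale (edgeR adjusted p = 0.000652). Heyl and Hey1 had log2 fold changes of -3.36 and -1.65, and Hey2 of -1.17. Id3, an inhibitor that binds the partners of bHLH activators, had -1.04 (edgeR adjusted p = 0.125, and 0.00286 with the block). Its relatives, chosen after their values were seen, did not pass in either fit, with 0.41 for Id2 (edgeR adjusted p = 0.372, and 0.0841 with the block), -0.52 for Id1 (edgeR adjusted p = 0.205, and 0.0563 with the block) and -0.15 for Id4 (edgeR adjusted p = 0.747).

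Of 23 other HC and otic transcription factors and regulators, 16 were tested at P0, 1 was called higher and 2 with the block. The first was Zfp503, a zinc finger protein, at 31.7 ± 8.38 RPM under compound E against 7.89 ± 2.38 RPM in the controls. The other was Srrm4, a splicing regulator needed in HCs rather than a transcription factor, at 1.24 on the log2 scale (edgeR adjusted p = 0.254) and 1.26 with the block (edgeR adjusted p = 0.00371). Among 12 SC markers, Fabp7, a fatty acid binding protein of SCs, was called lower (-3.38 on the log2 scale), as was the Notch ligand Jag1 with the block (-1.29, edgeR adjusted p = 0.00275). Without the block Jag1 had -1.37 (edgeR adjusted p = 0.0165), and DESeq2 called both Fabp7 and Jag1 lower.

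At P6 none of the 9 genes passed these thresholds with edgeR or DESeq2. On simulated P6 counts the edgeR fit without pairs called 0 of 100 genes raised by a log2 of 1, so changes of that size could be missed. Neurod6 had 0 counts in all 6 libraries and was not tested, and of the other 8, edgeR called 0 with or without the block, 0 had an unadjusted p under 0.05 in either fit, and DESeq2 called 0. Over the 15322 genes tested edgeR called 0 (0% higher and 0% lower) in both fits, with 289 genes at an unadjusted p under 0.05 and 1108 with the block. Over all genes DESeq2 called 13 at P6, 2 of them higher. Log2 fold changes ran from -0.36 for Pou4f3 (SE 0.612) to 0.79 for Atoh1 (SE 0.452), with a median of 0.11.

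Atoh1 had 7.01, 5.94 and 5.99 RPM with DMSO and 18.9 RPM, 7.35 RPM and 6.37 RPM with compound E at P6. It was the only gene of the tested 8 to be higher in all 3 pairs, a pattern shown by 15.8% of all genes, with folds of 2.67, 1.23 and 1.06. Replicate 1 carried the difference, and without that compound E library the log2 fold change was 0.14. Less the log2 ratio of the HC marker sum in the same pair, Atoh1 stood at 0.53 ± 1.14. It was above that sum in 1 of 3 pairs.

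Hes6 had 26.4, 30.1 and 32.8 RPM with DMSO and 34.5 RPM, 27.8 RPM and 30.0 RPM with compound E at P6, so that its libraries were closely spaced and overlapped. Its log2 fold change of 0.058 had a small error (SE 0.169, edgeR adjusted p = 1.00). Insm1 had 2.09, 0.324 and 2.91 RPM with DMSO and 2.43 RPM, 0.941 RPM and 2.29 RPM with compound E, the groups overlapping throughout.

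Pou4f3 had 7.01, 2.48 and 9.93 RPM with DMSO and 3.26 RPM, 3.00 RPM and 8.74 RPM with compound E, lower in 2 of 3 pairs. Gfi1 was at 7.85 to 18.0 RPM with DMSO and 7.35 to 25.4 RPM with compound E, Lhx3 at 5.65 to 12.3 and 7.11 to 14.7 RPM, Barhl1 at 2.23 to 6.51 and 2.65 to 9.51 RPM, and Nhlh1 at 0.288 to 2.31 and 0.636 to 3.13 RPM. No gene of the 9 had separate groups at P6, against 3.04% of genes with every compound E library above every DMSO library. The summed HC markers were at 0.744, 1.36 and 1.16 of DMSO in P6 pairs 1, 2 and 3, and 0 of the 20 markers were called by edgeR in either fit (0 and 3 at an unadjusted p under 0.05) or by DESeq2. Of the 12 bHLH partners and inhibitors, edgeR called 0 at P6 in either fit, and DESeq2 called Hes1 and Hes5 lower. At an unadjusted edgeR p under 0.05 were 4 without the block and 6 with it. Without the block the P6 log2 fold changes were -4.27 for Hes5 (SE 0.905), -1.90 for Hes1 (SE 0.297) and -1.61 for Heyl (SE 0.487). They were -0.84 for Hey2 (SE 0.372) and -0.66 for Hey1 (SE 0.186). Of all 12, 8 were below 0 and 4 above.

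Whether the responses differed between the ages was tested by an age-by-treatment term over all 14 libraries. Without the block edgeR called 0 of the 8 genes (2, Hes6 and Insm1, had an unadjusted p under 0.05), and 0 of all 17090, with 811 at an unadjusted p under 0.05 and 33 called by DESeq2. With the replicate block, Hes6 was called, with a P6 response lower than the P0 response by -2.02 on the log2 scale (SE 0.189, edgeR adjusted p = 0.00454), where 0.0527% of genes were called lower and 0.041% higher. The differences of Insm1 (-2.51, SE 0.393, edgeR adjusted p = 0.0327), Pou4f3 (-1.45, SE 0.368, edgeR adjusted p = 0.174) and Atoh1 (-1.29, SE 0.306, edgeR adjusted p = 0.135) did not pass. The count of the 9 genes called in the blocked fit fell from 1 to 0 when a pair was left out, except without P6 pair 1. For Lhx3 and Nhlh1 the differences of -0.098 and -0.15 were below their errors.

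**Figure D3:**
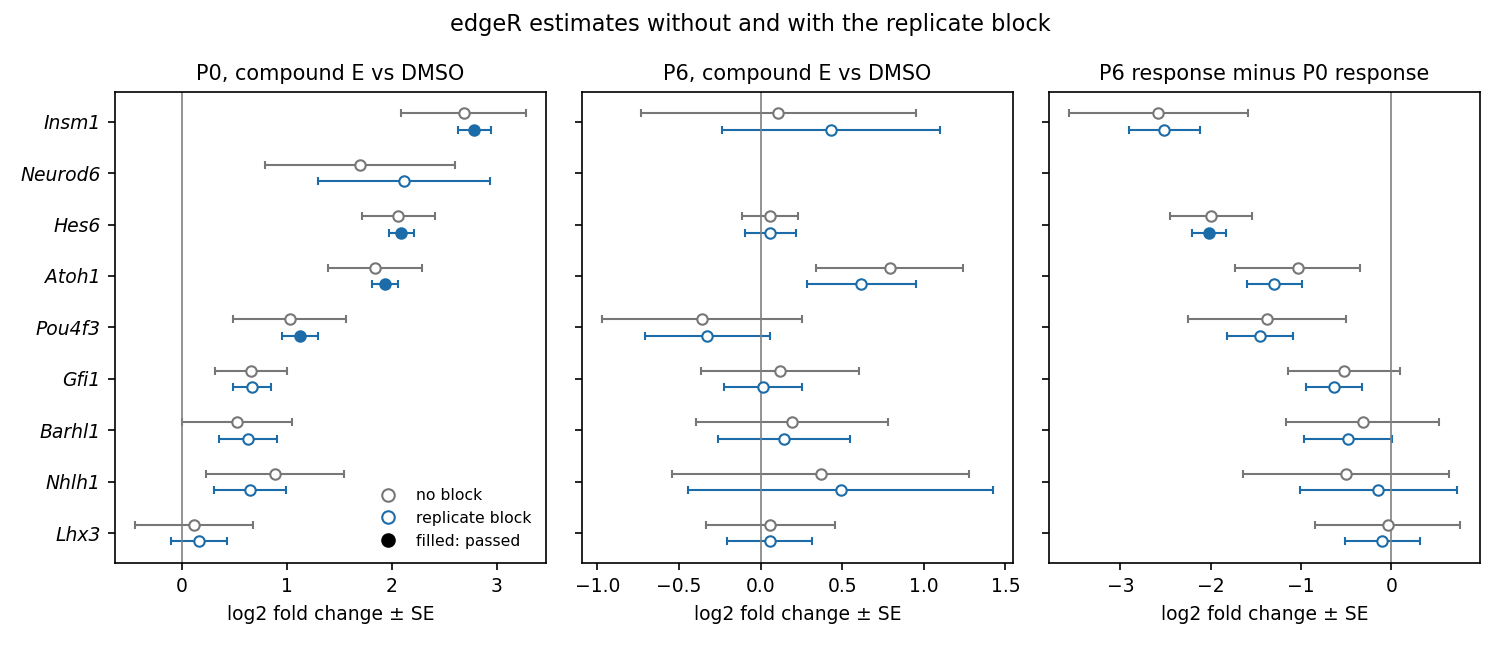
edgeR log2 fold change ± SE of the 9 genes for compound E against DMSO at P0 and at P6, and for the P6 response minus the P0 response, without (grey) and with (blue) the replicate block; each panel has its own axis range, and filled points passed the thresholds. Insm1, Hes6, Atoh1 and Pou4f3 passed at P0 with the block, and of the age differences only Hes6 passed with the block; Neurod6 has no value at P6.

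Control levels of the 9 genes were also compared between the ages. Between P6 and P0 DMSO libraries, Atoh1 was called lower, at 6.31 ± 0.601 RPM (SD, n = 3) at P6 against 53.2 ± 33.6 RPM (SD, n = 4) at P0, which is -2.97 on the log2 scale (SE 0.540, edgeR adjusted p = 0.00171). This was 1 of the 8 genes tested, while 3.38% of all genes were called lower and 3.74% higher. The call was lost without P6 DMSO replicate 2, where the edgeR adjusted p was 0.0105. Hes6 (-0.95, SE 0.325, edgeR adjusted p = 0.0507) and Insm1 (-1.89, SE 0.725, edgeR adjusted p = 0.0767) did not pass. Pou4f3 (-0.15, SE 0.619) and Gfi1 (-0.30, SE 0.440), which act later in HCs, differed by less than their errors. Neurod6, at 0 in the 3 P6 DMSO libraries, was at least 25.1-fold lower there than in P0 DMSO by a floor of 3 counts over the group, a limit that covers counting error only. That limit pools the libraries of each group and leaves out the spread between them. P0 DMSO replicate 3 was also at 0 counts, and replicate 2 had 8.

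Levels were compared between genes per length, as RPKM over the merged exons of each gene. With compound E at P0 the order was Hes6 (145 ± 54.7 RPKM), Atoh1 (91.5 ± 42.4), Insm1 (14.8 ± 7.81), Gfi1 (8.85 ± 4.13), Lhx3 (7.58 ± 5.97), Pou4f3 (6.58 ± 4.06), Barhl1 (4.21 ± 2.72), Nhlh1 (1.92 ± 1.55) and Neurod6 (1.33 ± 0.566 RPKM, SD, n = 4 each). Within libraries, Insm1 and Gfi1, Gfi1 and Lhx3, Lhx3 and Pou4f3, and Nhlh1 and Neurod6 did not differ beyond their spread. Insm1 took place 7 among the 9 with DMSO, at 2.29 ± 1.70 RPKM, and place 3 with compound E.

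At P6 Hes6 was highest in both groups, at 16.5 ± 1.78 RPKM with DMSO and 17.0 ± 1.88 RPKM with compound E (SD, n = 3). Atoh1, the second highest at P0, was at 2.98 ± 0.283 RPKM with DMSO, where it did not differ beyond the spread from Lhx3 (3.10 ± 1.12) or Pou4f3 (2.70 ± 1.56). Atoh1 and Hes6 together held 73.7% to 79.9% of the summed RPM of the 9 in the P0 compound E libraries, 57.6% to 70.8% in P0 DMSO, 36.3% to 64.8% in P6 compound E and 43.3% to 65.7% in P6 DMSO.

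**Figure D4:**
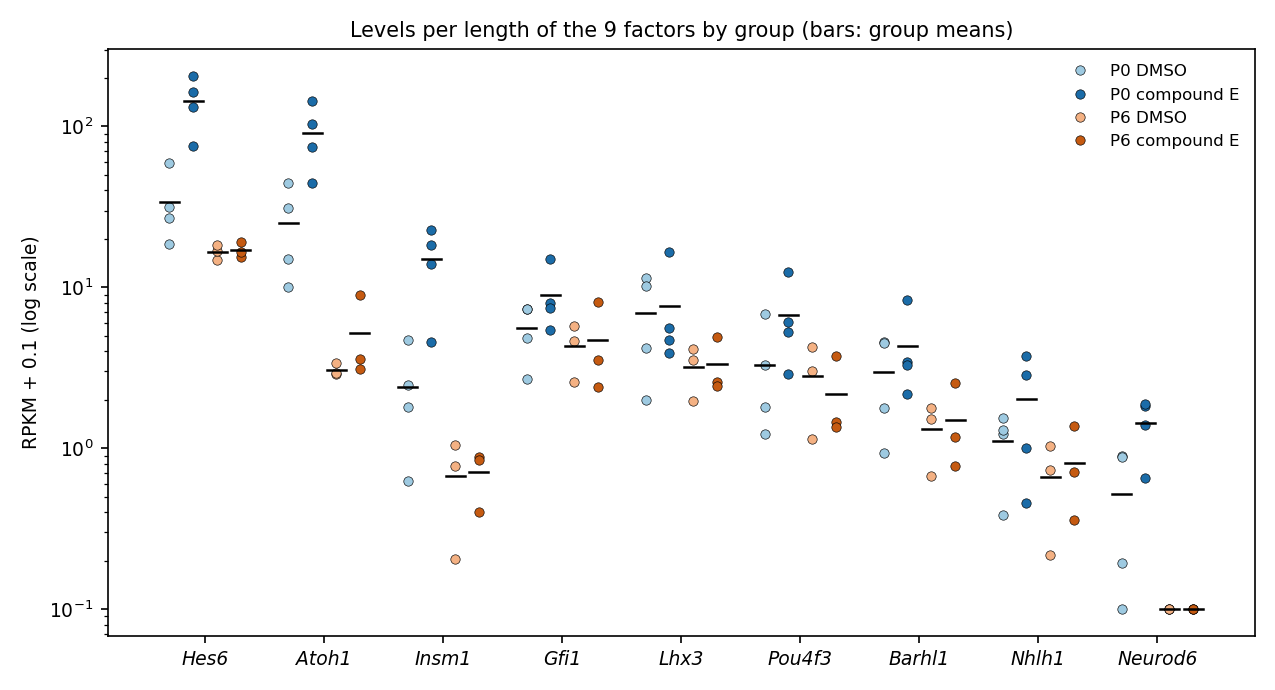
RPKM + 0.1 on a log axis for the 9 genes, a point per library and a bar at each group mean, in P0 DMSO, P0 compound E, P6 DMSO and P6 compound E. By group mean, Hes6 and Atoh1 lie above the other genes at P0, Atoh1 lies among the other genes in P6 DMSO, and Neurod6 is at 0 at P6. In P6 compound E Atoh1 is next after Hes6 (5.12 RPKM), but it did not differ beyond the spread from Gfi1 (4.57 RPKM).

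The genes whose levels were most like those of Atoh1 over the 14 libraries were, by Pearson correlation of log2(RPM + 0.1) among 13860 genes, Dll3 (0.978), Kcnh6 (0.973), Fam78b (0.972), Vwa5b2 (0.968) and Tekt1 (0.967). Dll3, a Delta-like member of the Notch ligand family, averaged 44.5 RPM in compound E and 9.75 RPM in DMSO libraries at P0, and 2.28 RPM and 1.26 RPM at P6. For Insm1 the most alike gene was Dll1 (0.972), the Notch ligand that HC precursors display, with 57.2 RPM and 11.6 RPM at P0 and 2.64 RPM and 2.33 RPM at P6. Most alike to the others were Lrrc73 for Hes6 (0.956), Tmem255b for Pou4f3 (0.953), Mgat5b for Gfi1 (0.979), Gpr155 for Lhx3 (0.955), Palld for Barhl1 (0.957), Dgkg for Nhlh1 (0.901) and Psph for Neurod6 (0.966). These values describe likeness only, since the points fall into the 4 groups and share pairs and batches.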

How the data were processed

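RNA of sorted Lfng-EGFP+ SCs was sequenced from SMART-Seq v4 PLUS libraries without molecular identifiers. The authors trimmed reads, mapped them to mouse GRCm38/mm10 with STAR, and deposited raw counts per gene symbol. Per the labels the tools were Trim Galore 0.6.0, cutadapt 1.15 and STAR 2.7.0f. Which annotation release was used, and whether reads were counted by strand, is not given in the sources used here. Totals were 19415066 to 44430063 counts per library, and intervals and floors (3 counts) cover counting error only.

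Counts were tested with edgeR 4.0.16 in R 4.3.3 (TMM, filterByExpr with a minimum count of 10, quasi-likelihood test, Benjamini-Hochberg adjustment), and a gene was called where the adjusted p was 0.01 or less and the fold was 2 or more, as in the study's methods. The study itself used DESeq2 for its calls. Here DESeq2 1.42.0, the replicate block, batch, other scalings, filters and thresholds and leaving out libraries or pairs were alternatives. Replicate numbers were taken as pairs, and deviations from group means correlated in every pair (0.162 to 0.498 at P0 and 0.265 to 0.620 at P6). Libraries of unlike replicate number were not compared in this way, so these values cannot decide whether the pairs are right. P0 pairs 3 and 4 shared a batch, so the batch labels do not settle which of their libraries belong together. No duplicated libraries were found (lowest chi-square per degree of freedom 19.0 over 18 pairs of replicates). Nothing states that replicates were separate litters, so p-values measure the spread between these samples.

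RPM was the count scaled to a library total of 1000000, and RPKM used merged exons of GENCODE vM21. Pair ratios used RPM + 0.1. The scripts were tested on simulated data. Of 100 genes raised by a log2 of 1, the fit without pairs called 18 at P0 and 0 at P6, and the blocked fit 35 and 26. Of 99 raised by a log2 of 2, the fit without pairs called 71 and 37, and the blocked fit 92 and 75. The blocked P6 fit also called 11 unchanged genes, and the other fits 0 or 1. The 9 genes and all other gene lists were chosen with earlier results of these data known. Named besides the 9 were, from each list, genes called at P0 in either fit (at most 6 with the largest change), Myo7a, Hes1, Hes5, Hey1 and Zfp503, and the genes most correlated with a member among those with a mean of at least 1 RPM.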

Additional observations from a re-analysis of the deposited data

Results flagged for a closer look

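Lhx3 with compound E at P0 had a library far from the others: replicate 1 stood at 50.2 RPM, and its gap to the nearest library was 0.866 of the group's range, above Dixon's 95% critical value for 4 libraries. It was 1 of 18 groups of the 9 genes examined in this way, where chance gives about 1 in 20. The same replicate had the highest level of 8 of the 9 genes with compound E.

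The response of Hes6 to compound E differed between the ages in the fit with the replicate block, by -2.02 on the log2 scale (SE 0.189, edgeR adjusted p = 0.00454). Hes6 was higher in 4 of 4 pairs at P0 and in 1 of 3 pairs at P6. Without the block the difference was -1.99 (SE 0.454, edgeR adjusted p = 0.309), and in that fit the direction was the same without each library or pair in turn. Age and batch cannot be told apart.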

How the results depend on the processing

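The number of the 9 genes called higher at P0 was 0 in the edgeR fit without pairs and 4 with the replicate block. It was 3 with DESeq2, 3 with batch as a block, 2 with only an adjusted p of at most 0.05 required, and 1 with DESeq2 size factors in edgeR, without the filter on low counts, and with all 14 libraries in one fit. Leaving out a library or pair gave 0 to 1, the 1 being Hes6 without compound E replicate 2, DMSO replicate 1 or both libraries of replicate 1. The blocked P0 count was 3 without each pair in turn. The age difference was called for 1 gene with the replicate block or batch as a block, against 0, and for 0 to 1 without a pair. The lower Atoh1 in P6 DMSO gave a count of 0 to 1 when a library was left out. The mean pair ratio of each gene moved by less than its SD over pairs under TMM scaling and a pseudocount of 1 RPM. Without single P0 pairs it ranged from -0.052 to 0.56 for Lhx3 and from 1.30 to 2.83 for Neurod6. The replicate block changed no other call of the 9 genes. Over all genes, P0 calls numbered 195 in the edgeR fit without pairs, 350 with the replicate block and 334 with batch as a block. They numbered 443 with DESeq2, 117 in the joint fit of both ages and 617 with the looser threshold. Leaving out both P0 libraries of replicate 1, 2, 3 or 4 gave 206, 69, 44 or 1 of them, against 281, 288, 212 or 216 with the block.

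Directions of fitted changes that turned did so only when libraries were left out. At P0 the log2 fold change ranged from -0.55 to 0.49 for Lhx3 and from -0.083 to 0.49 for Myo7a. At P6 it ranged from -0.10 to 0.15 for Hes6, -0.38 to 0.64 for Insm1, -0.51 to 0.42 for Gfi1, -0.32 to 0.30 for Lhx3, -0.44 to 0.64 for Barhl1, -0.29 to 0.93 for Nhlh1 and -0.99 to 0.056 for Pou4f3. The age difference ranged from -0.42 to 0.62 for Lhx3, -0.95 to 0.18 for Barhl1 and -1.16 to 0.065 for Nhlh1, and the P6 over P0 DMSO difference of Pou4f3 from -0.55 to 0.46. The cause was not tested. Low counts limit Neurod6 and Nhlh1.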
